A study of Homo sapiens with 6 samples.

Results

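The oncofetal IGF2BP, HMGA and IGF axis was described here through 10 genes fixed by symbol: IGF2BP2, IGF2BP3, HMGA1, HMGA2, IGF2, IGF1R, IGF2R, IGFBP2, IGFBP3 and IGFBP6. All probe sets whose platform annotation held exactly 1 symbol and that symbol was in the list were kept, which gave 16 of 22215 non-control probe sets, for 9 genes. IGF2 had none of its own: 3 probe sets listed IGF2 together with the read-through transcript INS-IGF2, and these were not used, so IGF2 has no value here. The genes were chosen by hand with the measured E1 and HCT116 intensities of these arrays, and the calls made from them, already known; IGF2BP3 was among those calls. Fold changes, calls and counts of the 16 probe sets therefore describe these arrays and are not independent evidence.

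Expression was measured on Affymetrix arrays in a pair of human colon cancer lines, 3 arrays per line. HCT116 is a long-used line that the labels call poorly metastatic; E1 is labelled metastatic and in-vivo derived, with HCT116 again given as its cell line. No treatment, time or genotype is given for either line, and the labels do not say how E1 was selected, or whether it is 1 clone. The labels call the arrays triplicates without naming separate cultures, so p-values measure only the spread between arrays, which may be technical.

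IGF2BP2 and IGF2BP3 are RNA-binding proteins of fetal tissue that coat selected mRNAs and affect their stability, location and translation. IGF2BP3 is low in most adult tissues and often returns in tumours. HMGA1 and HMGA2 are small AT-hook proteins that bend chromatin at AT-rich DNA and, like the IGF2BP proteins, are abundant in the embryo and in many carcinomas. IGF2 is a fetal growth factor that acts through the receptor tyrosine kinase IGF1R, is cleared by the receptor IGF2R, and is held in the extracellular fluid by the IGFBP proteins.

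The values are deposited linear intensities, given with the SD over the 3 arrays of a line. Differences are of log2(intensity + 32) as E1 minus HCT116. The standard error (SE) is that of a limma fit over all 22215 probe sets, and a call is an adjusted p (Benjamini-Hochberg, whole table) under 0.05. For markers and pathway genes, SE and calls are those of a separate limma fit over 11963 genes, with 1 probe set per gene. The offset of 32 understates differences at low signal. The arrays of E1 were not alike: the ratio of 3' to 5' signal of the GAPDH control was 0.774 to 0.811 in HCT116 and 0.803 on E1 array 1. It was 34.1 and 71.9 on E1 arrays 2 and 3. The same ratio for ACTB was 0.930 to 1.00 in HCT116, 1.12 on E1 array 1, and 46.1 and 89.9 on the other E1 arrays. Each E1 array is therefore given by itself below. Of 7 markers of colon epithelial cancer cells, 5 lay above the array median on all 6 arrays (EPCAM, KRT8, KRT18, KRT19 and CDH1), while CDX2 and VIL1 did not. Their summed intensity was 16759 to 19392 in HCT116 and 11462 to 14562 in E1. KRT8 read 3169 to 4693 in HCT116 and 2862, 372 and 103 in E1, a difference of -2.91. KRT19 stood at -0.80, KRT18 at -0.40, CDX2 at -0.20 and VIL1 at -0.06. CDH1 stood at 0.03, and EPCAM went the other way, at 0.40. In limma 0 of the 7 were called and 2 had an unadjusted p under 0.05, KRT8 and KRT18.

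The upstream sequences of 4 genes are shown because their values separate the members: IGF2BP3, HMGA1 and IGFBP6, each with a probe set more than 1 log2 unit below the HCT116 mean on every E1 array, and IGF2BP2, the relative of IGF2BP3 whose arrays overlapped between the lines. Each is the 250 bases before the RefSeq transcription start (GRCh38.p14), 5′ to 3′ on the gene's strand, and for HMGA1 and IGF2BP2, which have more than 1 start in the table, the start listed first. Of the 10 genes, 8 had an entry in the RefSeq promoter table. Capitals mark matches to 4 motifs searched on both strands, the E-box CACGTG, the GC box GGGCGG, the CCAAT box CCAAT and the TATA box TATAAA; matches may overlap.
IGF2BP3, chr7:23470492-23470741, minus strand: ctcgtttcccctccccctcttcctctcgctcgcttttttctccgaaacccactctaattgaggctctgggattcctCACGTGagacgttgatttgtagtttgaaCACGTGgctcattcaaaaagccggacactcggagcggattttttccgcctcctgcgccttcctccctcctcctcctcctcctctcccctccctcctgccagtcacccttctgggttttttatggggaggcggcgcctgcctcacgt
IGF2BP2, chr3:185825043-185825292, minus strand: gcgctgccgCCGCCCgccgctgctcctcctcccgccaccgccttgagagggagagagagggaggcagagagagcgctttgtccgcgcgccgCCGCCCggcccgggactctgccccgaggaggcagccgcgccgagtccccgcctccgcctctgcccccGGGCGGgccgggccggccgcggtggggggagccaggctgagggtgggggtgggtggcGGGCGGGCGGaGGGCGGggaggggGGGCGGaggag
HMGA1, chr6:34236623-34236872, plus strand: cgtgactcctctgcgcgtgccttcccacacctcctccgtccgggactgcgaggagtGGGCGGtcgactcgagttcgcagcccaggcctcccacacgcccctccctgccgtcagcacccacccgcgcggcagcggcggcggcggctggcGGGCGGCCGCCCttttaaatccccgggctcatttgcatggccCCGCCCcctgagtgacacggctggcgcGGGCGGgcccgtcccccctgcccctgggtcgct
IGFBP6, chr12:53097417-53097666, plus strand: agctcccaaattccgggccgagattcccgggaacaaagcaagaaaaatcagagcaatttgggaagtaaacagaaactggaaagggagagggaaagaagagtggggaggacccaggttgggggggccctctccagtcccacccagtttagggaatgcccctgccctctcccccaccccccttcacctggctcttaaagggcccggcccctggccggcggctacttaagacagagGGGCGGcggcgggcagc

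The paralogues differed in these windows. That of IGF2BP3 held 2 E-box matches, 174 and 146 bases before the start, 0 GC box matches and 56.8% G and C. That of IGF2BP2 held 7 GC box matches, 0 E-box matches and 81.6% G and C. The HMGA1 window held 5 GC box matches and the IGFBP6 window 1, and neither held an E-box match, whereas the IGF2R window, not shown, held 3 E-box and 6 GC box matches. Over all 35116 windows of the table, 6.34% held CACGTG, 42.6% GGGCGG, 32% CCAAT and 10.7% TATAAA. These matches describe letters in the reference sequence; binding was not measured.

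IGF2BP3 was lower on every E1 array than on every HCT116 array. Probe set 203819_s_at read 484, 886 and 506 on the HCT116 arrays and 45.9, 81.5 and 82.4 on the E1 arrays. The lines did not overlap, and the E1 array with intact 5' control signal, array 1, was the lowest of the 6. Its signal lay under that array's median of 61.3, while those of E1 arrays 2 and 3 lay above their array medians. HCT116 averaged 626 ± 226 (SD, n = 3) and E1 69.9 ± 20.8 (SD, n = 3). The log2 difference was -2.66 (SE 0.28, limma adjusted p = 0.0237), which is 6.32-fold lower on the offset scale.

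The other IGF2BP3 probe sets went the same way. Probe set 203820_s_at read 353, 618 and 508 in HCT116 and 101, 118 and 145 in E1, again without overlap and again lowest on E1 array 1. Its log2 difference was -1.75 (SE 0.22, limma adjusted p = 0.0372). Probe set 216493_s_at read 77.1, 161 and 94.0 in HCT116 and 12.04, 9.48 and 1.80 in E1, where all 3 signals lay under the array medians and have no order among them. Its log2 difference was -1.81 (SE 0.24, limma adjusted p = 0.0411). It stood at -3.87 with an offset of 1 and -0.95 with an offset of 100, and was called with neither. With E1 array 1 alone against HCT116 the differences of these probe sets, in the order given, were -3.03, -1.94 and -1.65, and with E1 arrays 2 and 3 alone they were -2.48, -1.66 and -1.89. The IGF2BP3 difference was of similar size on E1 array 1 and on E1 arrays 2 and 3. The part of 5' signal in this difference was not tested. The 3 probe sets carry the same gene symbol, were read on the same arrays and are not replicates of each other.

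IGF2BP2, whose protein shares its RNA-binding domain plan with IGF2BP3, did not show this difference. Its probe set, 218847_at, read 397, 574 and 462 in HCT116 and 505, 576 and 461 in E1. The lines overlapped, with a log2 difference of 0.11 (SE 0.17). Its direction is not settled, since without HCT116 array 1 it stood at -0.01. The third family member, IGF2BP1, was not measured by a probe set of its own symbol in this annotation and has no value here.

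**Figure D1:**
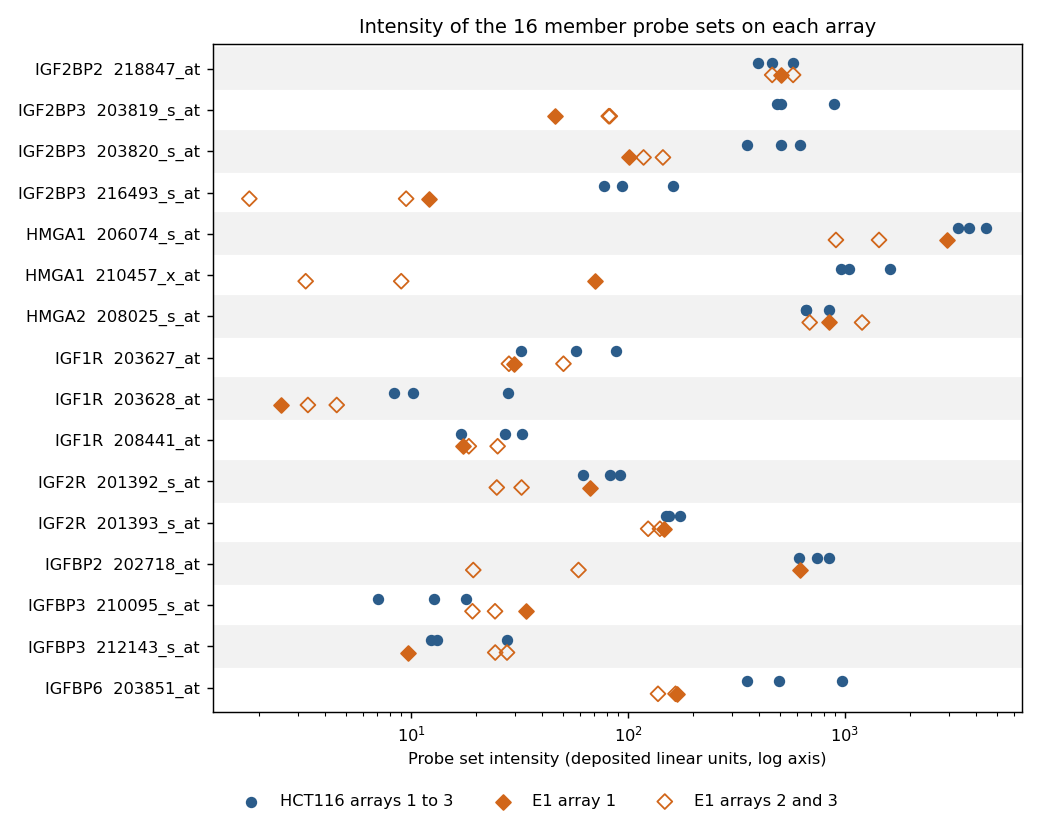
Intensity of each of the 16 probe sets (rows, gene symbol and probe set name) on a log axis, with HCT116 arrays as blue circles, E1 array 1 as a filled orange diamond and E1 arrays 2 and 3 as open diamonds. The 3 IGF2BP3 rows, HMGA1 210457_x_at and IGFBP6 show all E1 arrays well below all HCT116 arrays, whereas IGFBP2 has E1 array 1 at 620, beside the lowest HCT116 array at 614, and the other E1 arrays at 59.1 and 19.3.

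The HMGA1 probe sets gave different sizes of difference. Probe set 206074_s_at read 3712, 4445 and 3306 in HCT116 and 2959, 1434 and 908 in E1. All E1 arrays were below all HCT116 arrays, but E1 array 1 lay close to them and arrays 2 and 3 far lower. The log2 difference was -1.25 (SE 0.42, limma adjusted p = 0.234), made up of -0.35 on E1 array 1, -1.38 on array 2 and -2.03 on array 3.

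Probe set 210457_x_at of HMGA1 read 1046, 1608 and 953 in HCT116 and 70.7, 9.004 and 3.27 in E1. HCT116 averaged 1202 ± 354 (SD, n = 3) and E1 27.6 ± 37.4 (SD, n = 3). The log2 difference was -4.51 (SE 0.44, limma adjusted p = 0.0199). E1 arrays 2 and 3 lay under their array medians of 48.1 and 53.7, and the difference moved with the offset, to -6.33 with an offset of 1 and -3.36 with an offset of 100. E1 array 1 by itself stood at -3.55, against -0.35 for 206074_s_at on the same array. A probe set name ending in _x_at means that some of its probes can pair with other transcripts, and HMGA1 has processed pseudogene copies, so which transcripts this signal reports is uncertain. The positions of the probes within the HMGA1 transcript were not used here. The gene as a whole is therefore given only as 2 probe sets that were each lower on all E1 arrays, of which 1 was called.

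HMGA2 had 1 probe set, 208025_s_at, and it was not lower. It read 662, 847 and 664 in HCT116 and 846, 687 and 1198 in E1. The lines overlapped, with the highest value on E1 array 3, and the log2 difference was 0.29 (SE 0.23). The HMGA paralogues, like IGF2BP3 and IGF2BP2, thus had unlike values across the lines, but whether the differences within a pair differ was not tested.

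The receptors showed small differences or low signal. For IGF1R, the receptor tyrosine kinase that binds IGF1 and IGF2, 203627_at read 87.9, 32.2 and 57.3 in HCT116 and 29.8, 50.4 and 28.2 in E1, with overlap and a log2 difference of -0.39 (SE 0.26). The other IGF1R probe sets, 203628_at and 208441_at, lay under the array median on all 6 arrays, at log2 differences of -0.40 (SE 0.18) and -0.13 (SE 0.15). The arrays of 203628_at did not overlap, but these are signals of 2.52 to 4.54 in E1 and 8.31 to 27.9 in HCT116, and the value of 208441_at turned to 0.02 when array medians were subtracted. IGF1R is therefore reported as dim on these arrays, with no call on its 3 probe sets.

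IGF2R, the receptor that takes IGF2 and lysosomal enzymes out of circulation, had 2 probe sets of unequal behaviour. Probe set 201393_s_at read 174, 149 and 154 in HCT116 and 147, 140 and 124 in E1, a log2 difference of -0.18 (SE 0.12) that turned to 0.03 under quantile normalization. Probe set 201392_s_at read 83.0, 91.3 and 62.0 in HCT116 and 66.8, 24.8 and 32.3 in E1. Here E1 array 1 lay within the HCT116 range and the E1 arrays with low 5' signal lay under it, and the log2 difference was -0.63 (SE 0.24, limma adjusted p = 0.274) over the full set, and -0.16 for E1 array 1 alone.

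Of the IGF-binding proteins, IGFBP6, which prefers IGF2 to IGF1, was lower on every E1 array. Its probe set, 203851_at, read 971, 353 and 499 in HCT116 and 167, 165 and 137 in E1. The lines did not overlap; the E1 arrays were close together, at 157 ± 16.8 (SD, n = 3), while HCT116 array 1 stood far above the others, giving 607 ± 323 (SD, n = 3). The log2 difference was -1.65 (SE 0.35) and was not called, at a limma adjusted p of 0.112; the 7 alternatives that kept all arrays gave 0.0431 to 0.216. The lowest of these, a call, came when the lowest 40% of probe sets were left out. With E1 array 1 alone the value was -1.56.

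IGFBP2, a binding protein that is abundant in fetal plasma and also carries an integrin-binding motif, split by array. It read 839, 740 and 614 in HCT116, 620 on E1 array 1, and 59.1 and 19.3 on E1 arrays 2 and 3. The single fitted value, a log2 difference of -2.39 (SE 0.90, limma adjusted p = 0.274), stood for no E1 array: E1 array 1 was at -0.22, array 2 at -3.06 and array 3 at -3.88. The arrays with low IGFBP2 were those with GAPDH ratios of 34.1 and 71.9, and the part of 5' signal in this difference was not tested.

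IGFBP3, the main carrier of IGF in adult plasma, gave low signals in both lines. Probe set 210095_s_at read 7.01, 17.9 and 12.8 in HCT116 and 33.9, 19.2 and 24.4 in E1, and 212143_s_at read 13.1, 27.6 and 12.3 in HCT116 and 9.63, 27.7 and 24.4 in E1. All 12 values lay under the medians of their arrays. The log2 differences were 0.38 (SE 0.16) and 0.08 (SE 0.20), neither called, and the second stood at -0.24 with E1 array 1 alone. IGFBP genes are also made by stromal cells. The summed intensity of 7 fibroblast markers was 362 to 415 in HCT116 and 289 to 426 in E1, with COL1A1 and DCN above the array medians on all 6 arrays and LUM at 0.158 to 2.96, and in the limma fit over genes 0 of the 7 were called and 0 had an unadjusted p under 0.05. The summed intensity of 5 leukocyte markers was 216 to 311 in HCT116 and 232 to 424 in E1. That of 4 endothelial markers was 78.5 to 101 and 93.1 to 103, and that of 4 hepatocyte markers 89.7 to 148 and 150 to 249. Of these 3 lists 0 markers were called in limma and 1 each had an unadjusted p under 0.05, higher in E1: LAPTM5 at 0.57, VWF at 0.36 and SERPINA1 at 1.03. The part of any of these in the IGFBP values was not tested.

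**Figure D2:**
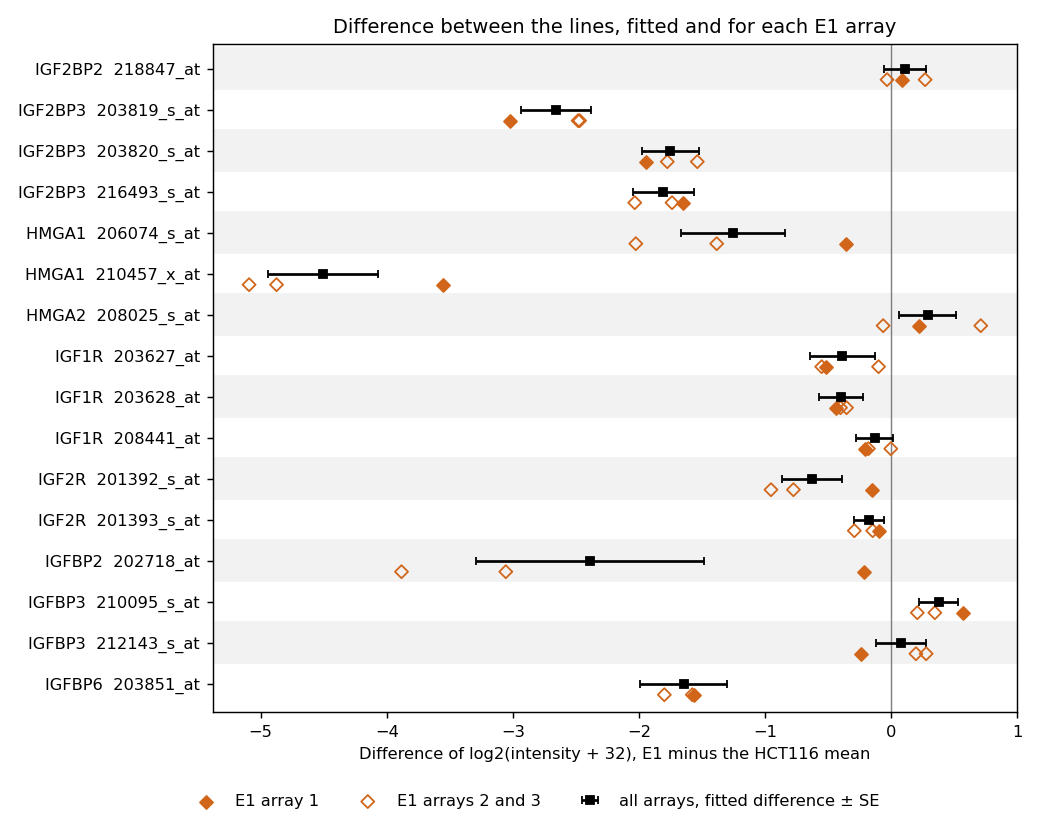
Difference of log2(intensity + 32) from the HCT116 mean for each probe set: black squares with bars are the fitted values of all arrays with their SE, filled diamonds E1 array 1 and open diamonds E1 arrays 2 and 3. For IGF2BP3 203819_s_at the E1 arrays lie between -3.03 and -2.47, whereas for IGFBP2 they run from -3.88 to -0.22.

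Over the 16 probe sets, 4 were called lower in E1 and 0 higher, namely all 3 of IGF2BP3 and 1 of HMGA1; among all probe sets 0.554% of probe sets passed as lower and 0.216% as higher. At an unadjusted p under 0.05 in limma, 8 of the 16 were lower and 0 higher, against 11.7% and 4.75% of all probe sets. The E1 arrays lay wholly below the HCT116 arrays for 8 probe sets and wholly above for 1, IGFBP3 210095_s_at, compared with 13.0% and 7.45% of all probe sets. The median log2 difference was -0.51 for the 16 and -0.02 for all probe sets, and with E1 array 1 alone it was -0.30 and -0.05. The contrast was in view when the genes were chosen, so nothing is read from these shares.

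Of the 12 probe sets with a negative difference, those of IGF2BP3, HMGA1, IGFBP2 and IGFBP6 fell into a pair of patterns by array. The patterns and their limit of 1 log2 unit were described after the values were seen. The IGF1R and IGF2R probe sets met neither, and IGF2R 201392_s_at stood at -0.16, -0.95 and -0.78 on E1 arrays 1 to 3. In 5 of the 16, each E1 array lay more than 1 log2 unit below the HCT116 mean: the 3 of IGF2BP3, HMGA1 210457_x_at and IGFBP6. That held for 0.923% of all probe sets. In 2 of the 16, HMGA1 206074_s_at and IGFBP2, only E1 arrays 2 and 3 did so, which held for 5.33% of all probe sets.

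The 4 calls changed with the array left out. Leaving out any HCT116 array, E1 array 2 or E1 array 3 left 0 of the 16 called in limma, with 5 to 8 at an unadjusted p under 0.05, while leaving out E1 array 1 called 7, which adds HMGA1 206074_s_at, IGF2R 201392_s_at and IGFBP2; without E1 array 1, 8.82% of all probe sets were called lower. Of the 7 alternatives that kept all arrays, 6 called IGF2BP3 203819_s_at and 6 HMGA1 210457_x_at, 3 called 203820_s_at and 4 called 216493_s_at. When arrays were left out, the values of IGF2BP3 203819_s_at ran from -2.81 to -2.39, those of 203820_s_at from -1.96 to -1.58, 216493_s_at from -1.98 to -1.57 and HMGA1 210457_x_at from -4.98 to -4.21. Over the 7 alternatives that kept all arrays the ranges were, in the same order, -3.13 to -2.06, -1.99 to -1.40, -3.87 to -0.95 and -6.33 to -3.36.

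With 1 probe set per gene, the 9 measured genes gave 1 call, IGF2BP3, which was lower, where 0.201% of all 11963 genes were called lower and 0.217% higher. HMGA1, represented there by 206074_s_at, and IGFBP2 and IGFBP6 had an unadjusted p under 0.05 without a call. The other genes of the pathway were taken from 5 lists. Of their 56 measured genes, limma called 0. An unadjusted p under 0.05 was reached by 13, of which 7 were higher and 6 lower; over all genes 5.29% were higher and 9.70% lower at that level. Their median log2 difference was 0.02, and that of all genes -0.01. Quantile normalization moved the median of all genes to 0.07 and subtraction of array medians to 0.14, and the split of all called genes from 26 higher and 24 lower to 43 and 20 and to 45 and 21.

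In the rest of the IGF system, 9 ligand, receptor, binding protein and protease genes, none had an unadjusted p under 0.05 and the values ran from -0.42 to 0.20. The insulin receptor, INSR, stood at 0.15 (SE 0.28), though averaging its probe sets gave -0.28 and it stood at -0.09 without HCT116 array 3. IGFALS, the acid-labile subunit of the circulating IGF complex, stood at -0.42 (SE 0.22), and IGFBP1 at 0.20 (SE 0.20).

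Among 16 measured genes of signalling downstream of IGF1R, 7 had an unadjusted p under 0.05, 3 higher and 4 lower, and the median was 0.03. Over all genes 5.29% were higher and 9.70% lower at that level, which also holds beside the counts of the lists below. No list was tested as a set. FOXO3, a forkhead factor that AKT keeps out of the nucleus, read 315, 397 and 263 in HCT116 and 138, 107 and 118 in E1, without overlap. Its log2 difference was -1.21 (SE 0.18), not called at a limma adjusted p of 0.0714 (0.0541 to 0.291 over the 8 alternatives that kept all arrays). E1 array 1 alone gave -1.05. GRB2, an adaptor between receptors and RAS, stood at -0.79 (SE 0.18). SHC1, another adaptor, stood at 0.79 (SE 0.22) with its brightest probe set but at -0.71 when its probe sets were averaged. The kinase AKT1 split by array as IGFBP2 did: it read 567, 435 and 521 in HCT116, 601 on E1 array 1, and 117 and 110 on the other E1 arrays. It was added after its values were seen.

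In the list of oncofetal RNA regulators and imprinted growth genes, 9 of 13 were measured, and an unadjusted p under 0.05 was found for 2 higher and 1 lower gene. PLAGL1, an imprinted zinc finger gene, read 364, 338 and 381 in HCT116 and 129, 253 and 196 in E1, at -0.84 (SE 0.22), and was lowest on E1 array 1. Averaging its probe sets gave -0.25. CDKN1C, an imprinted cell cycle inhibitor, read 137, 124 and 118 in HCT116 and 209, 177 and 319 in E1, at 0.72 (SE 0.21), or 0.32 with its probe sets averaged. LIN28A, which blocks maturation of let-7 microRNAs, had low signals of 3.95 to 23.2 in HCT116 and 26.7 to 62.3 in E1, at 0.71 (SE 0.24), which became 1.74 with an offset of 1 and 0.33 with an offset of 100. For these 3 genes the lines did not overlap, and none was called.

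Of 12 other high mobility group genes, 1 had an unadjusted p under 0.05, HMGN5, at 0.47 (SE 0.19), or 0.29 with its probe sets averaged. HMG20B, a subunit of a histone demethylase complex, stood at -1.52 (SE 0.67), but at 0.12 when E1 array 1 alone stood for its line, from 531 on that array and 95.6 and 50.0 on the other E1 arrays. HMGB2 stood at 0.49 (SE 0.31) and at -0.11 with E1 array 1 alone. Over the 12 genes the median was 0.06.

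The mRNAs of 10 genes reported as bound by IGF2BP proteins had a median of -0.08, and 1 gene on each side reached an unadjusted p under 0.05. CD44, a hyaluronan receptor, read 1406, 1360 and 1280 in HCT116 and 1722, 1905 and 2778 in E1, at 0.62 (SE 0.20), but stood at -0.15 when its probe sets were averaged. MKI67, a proliferation marker, stood at -1.22 (SE 0.43), with an HCT116 range of 263 to 804. CCND1, cyclin D1, read 713, 590 and 775 in HCT116, 703 on E1 array 1, and 186 and 230 on E1 arrays 2 and 3. Its value was -1.05 (SE 0.45), and 0.03 when E1 array 1 alone was used. With all arrays and its probe sets averaged, CCND1 stood at -1.37 (SE 0.25).

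**Figure D3:**
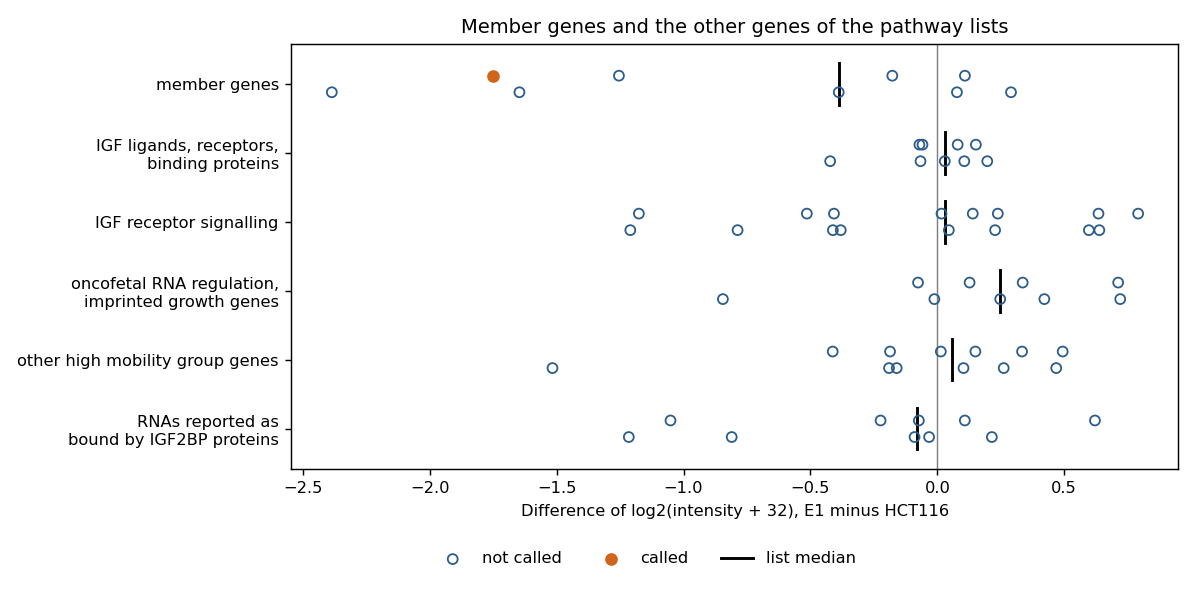
Difference of log2(intensity + 32), E1 minus HCT116, for 1 probe set per gene: rows are the 9 measured member genes and 5 pathway lists, each point is a gene, filled where called, and the black bar is the list's median. The single filled point is IGF2BP3 at -1.75, and the medians of the pathway lists lie between -0.08 and 0.25.

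The genes with the profile most like that of IGF2BP3 203820_s_at over the 6 arrays, among 5980 genes with a mean above the median, were SLC38A1, GFOD1, PPAT, ZNHIT1 and IMPDH2. Pearson's r of log2 values was 0.995, 0.977, 0.975, 0.969 and 0.964 in that order. The arrays form separate groups by line, so these coefficients largely describe a difference between lines and are given without a test. SLC38A1, a glutamine transporter on chromosome 12, read 396, 715 and 489 in HCT116 and 65.1, 95.4 and 102 in E1. Like IGF2BP3 it was highest on HCT116 array 2 and lowest on E1 array 1. PPAT, the entry enzyme of purine synthesis, read 581, 711 and 635 in HCT116 and 244, 331 and 371 in E1. IMPDH2, an enzyme of guanine nucleotide synthesis, had a smaller difference, from between 4182 and 4536 in HCT116 to between 3174 and 3289 in E1. GFOD1 and ZNHIT1 stood at log2 differences of -0.63 and -0.24. In the limma fit over genes SLC38A1 was called (adjusted p = 0.0309), and GFOD1, PPAT, ZNHIT1 and IMPDH2 were not. Among the members, r with IGF2BP3 was 0.74 for IGFBP6, 0.69 for HMGA1 206074_s_at and -0.14 for IGF2BP2.

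**Figure D4:**
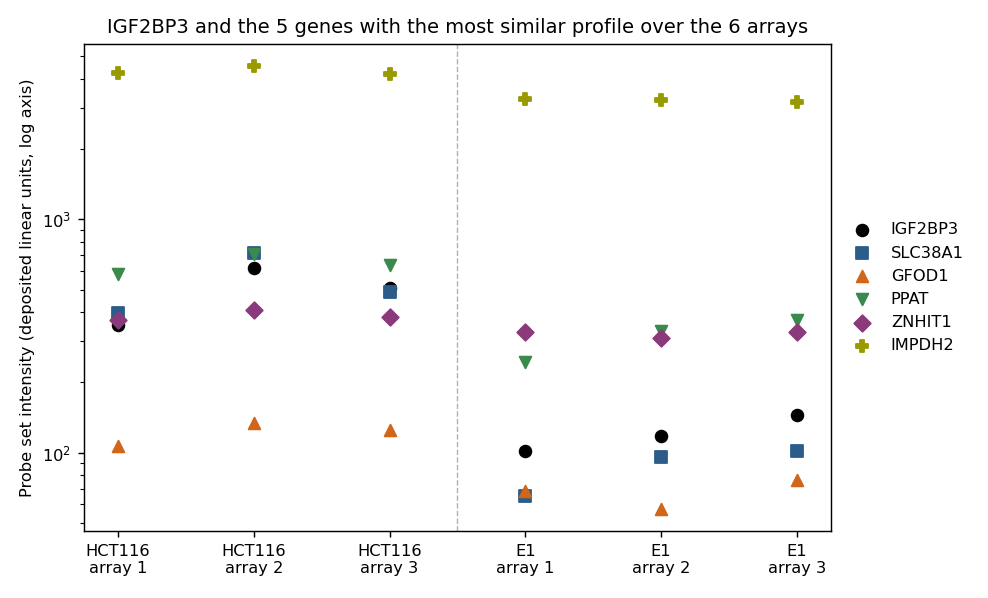
Intensity on a log axis of IGF2BP3 203820_s_at and the 5 genes with the highest Pearson's r over the 6 arrays, by array, with a dashed line between the lines. Each of the 6 genes is lower on all E1 arrays than on all HCT116 arrays, IGF2BP3 from 353 to 618 down to 101 to 145.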

How the data were processed

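Total RNA of 3 HCT116 and 3 E1 samples was extracted in Trizol and biotin-labelled after the Affymetrix manual, per the labels' protocols. The authors deposited 1 linear intensity per probe set and array; how the probes were summarized, corrected for background and scaled is not given in the sources used here. The file holds 22283 probe sets, of which 68 controls were left out of tests. Of the other 22215, 19065 carried 1 symbol, 1043 several and 2107 none; only single symbols were named. The number of arrays limits the precision.

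Intensities were transformed as log2(intensity + 32), with no further normalization, and tested two-sided by limma 3.58.1 (R 4.3.3; lmFit and eBayes, no trend). The fit was run over all probe sets and over 11963 genes, taking the probe set of highest mean for each gene. In simulated data of the 22215 probe sets with 200 changed by 2 log2 units, 76.9% were recovered and 4.36% of the calls were false. These percentages describe the simulated data only. The share of false calls on the measured arrays, where those of E1 were not alike in control signal, was not tested.

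The members, lists and tests were chosen with earlier results of these data known. Named were all members, every called gene and up to 3 genes of smallest p per list, cell type markers, and the 5 genes most like IGF2BP3. The alternatives were offsets of 1 and 100, quantile normalization, subtracted array medians, the lowest 40% left out, a trended and robust eBayes, the replicate number as a block, each array left out, E1 array 1 alone, a threshold of 0.01 and, for genes, the mean of probe sets.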

Additional observations from a re-analysis of the deposited data

How the results depend on the processing

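Of the 16 member probe sets, 4 were called in the main setting. The count was 2 with an offset of 1 and 2 with an offset of 100, ran from 0 to 7 when single arrays were left out, and was 0 with E1 array 1 alone (5 at an unadjusted p under 0.05 in limma) and 0 at a threshold of 0.01. With quantile normalization, subtracted array medians, the lowest 40% left out or trended and robust eBayes it was 3, 4, 5 and 4. For the member and pathway genes together, 1 was called, IGF2BP3; the count was 0 with an offset of 1, an offset of 100, quantile normalization, subtracted array medians, E1 array 1 alone or a threshold of 0.01, ran from 0 to 8 when single arrays were left out, and was 1 in the remaining settings without the block. With E1 array 1 alone 12 of these genes had an unadjusted p under 0.05. The causes of these changes were not tested.

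Deviations of same-numbered arrays from the line means correlated at -0.0414, -0.312 and -0.0863 for numbers 1, 2 and 3. Those of arrays with unlike numbers correlated at -0.123 to 0.207. The deviations within a line sum to 0, which ties these values to each other, and a shared batch was not tested. With the replicate number as a block, 0 of the 16 probe sets and 0 of the member and pathway genes were called, with 8 and 13 at an unadjusted p under 0.05 in limma, and the calls over all probe sets went from 171 to 0 and over all genes from 50 to 2.

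Over all probe sets the 171 calls became 111 with an offset of 100, 310 with the lowest 40% left out, 0 with E1 array 1 alone and 5 to 2358 when single arrays were left out; over all genes the 50 became 10 with an offset of 100, 2 with E1 array 1 alone and 2 to 1073. Calls over all probe sets were 48 higher and 123 lower, and 79 and 108 with quantile normalization. The following uncalled values changed sign: IGF2BP2 to -0.0080 without HCT116 array 1 (range -0.0080 to 0.240 when single arrays were left out); IGF1R 208441_at to 0.018 with array medians subtracted; IGF2R 201393_s_at to 0.031 with quantile normalization; IGFBP3 212143_s_at to -0.023 without E1 array 2 (range -0.023 to 0.237) and -0.24 with E1 array 1 alone. INSR went to -0.086 without HCT116 array 3 and -0.072 without E1 array 3 (range -0.086 to 0.301). With the mean of probe sets INSR went to -0.28, SHC1 to -0.71 and CD44 to -0.15. With E1 array 1 alone HMG20B went to 0.12, HMGB2 to -0.11 and CCND1 to 0.030.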
